A study of Mus musculus with 8 samples.

Results

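The clustered protocadherins are cell surface adhesion proteins encoded side by side in the alpha, beta and gamma clusters of mouse chromosome 18. Members were the rows of the deposited count table that the GENCODE M21 annotation gives as protein-coding and whose symbols begin with Pcdha, Pcdhb or Pcdhg, including the Pcdhac, Pcdhga, Pcdhgb and Pcdhgc genes, and end in a number. This gave 57 of 55401 genes, 14 in the alpha cluster, 22 in the beta cluster and 21 in the gamma cluster. Symbols carry the choice, so no measured value entered it. The counts came from RNA sequencing of E17.5 prospermatogonia, which are fetal male germ cells before birth. Of the 8 libraries, 4 were labelled KO with the genotype Tet1-/- and 4 were labelled WT with the genotype Tet1+/+, all in 1 batch. The comparison asks which transcripts differ without TET1, an enzyme that oxidises methylated cytosine in DNA. The sources used here do not give the mouse strain, the kind of Tet1 allele or the way the cells were isolated.

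Neurons use these genes to tell their own branches from those of other cells. In the alpha and gamma clusters each variable first exon has its own promoter and encodes the extracellular and transmembrane parts, and it is spliced to constant exons that all members of the cluster share. Beta genes are single-exon genes. Most promoters are alternates, which single neurons choose at random with the help of CTCF and cohesin loops and which DNA methylation silences where they are not chosen. The C-type members Pcdhac1, Pcdhac2, Pcdhgc3, Pcdhgc4 and Pcdhgc5 lie at the 3′ ends of the alpha and gamma clusters and are used more evenly between neurons.

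All 57 members lie on the plus strand of chromosome 18 (GRCm38, the assembly also called mm10). The alpha cluster runs from 36930184 to 37187661, the beta cluster from 37264938 to 37524479 and the gamma cluster from 37661793 to 37841873. An alpha member such as Pcdhac2 shares 2860 bases with other members, mostly constant exons, and a gamma member such as Pcdhga2 shares 2116. The deposited table behaves as if reads in such shared stretches were dropped. Of 763 genes with no exonic base of their own, 1 had any count, against 92.8% of the 47355 genes with 200 or more own bases. The counts of alpha and gamma members therefore come from variable exons and other bases of 1 gene alone. The median share of exonic bases belonging to 1 gene alone was 46.4% in the alpha cluster, 100% in the beta cluster and 54.8% in the gamma cluster. Pcdhga10 has 0 such bases and had 0 counts in all 8 libraries, which is a limit of the counting and not a level. In Pcdhgc3, 1559 exonic bases overlap BC037039, a gene annotated on the opposite strand, and strand does not appear to have been used. Of 454 genes that have 50 or more own bases only when strand is read, 4 had any count.

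Total counts ran from 13820764 to 20115250 per library. Levels are CPM, counts scaled to the library size with TMM factors. A log2 difference is the KO level minus the WT level from edgeR's quasi-likelihood test, and a gene passed where its Benjamini-Hochberg adjusted p over all 24005 genes tested was under 0.05. Tet1 went against the labels, with 75.8 to 147 CPM in the libraries labelled KO and 30.2 to 34.2 CPM in those labelled WT, so every direction below refers to the labels as deposited. Nothing in the labels says that the libraries came from separate animals, the library names of KO 1 and WT 1 share a number whose meaning is not given, and p-values measure the spread between these libraries only. KO 4 stood apart in genes of steroid-making Leydig cells, whose 6 markers summed to 1757 CPM there and to 13.7 to 31.3 CPM in the other 7 libraries. The 10 germ cell markers summed to 3201 to 3786 CPM in the libraries labelled WT and to 2307 to 2716 CPM in those labelled KO, and the most abundant of them, Piwil2 and Tdrd9, were at 460 CPM or more and at 264 CPM or more in every library.

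Protocadherin transcripts came mostly from the gamma cluster. Per kb of own exonic bases, the gamma cluster had 1.13 CPM in the WT group, the alpha cluster 0.333 and the beta cluster 0.0425. On this scale the highest single members in the WT group were Pcdhac2 at 2.35 ± 1.43 (SD, n = 4), Pcdhgc5 at 2.07 ± 0.378 (SD, n = 4) and Pcdhgb7 at 1.91 ± 0.283 (SD, n = 4). These 3 levels lie within their spread of each other. In the KO group Pcdhgc3 came first at 2.92 ± 0.654 (SD, n = 4), followed by Pcdhgb7 at 1.59 ± 0.298 (SD, n = 4) and Pcdhga12 at 1.57 ± 0.411 (SD, n = 4). Pcdhgb7 and Pcdhga12 did not differ beyond their spread.

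**Figure D1:**
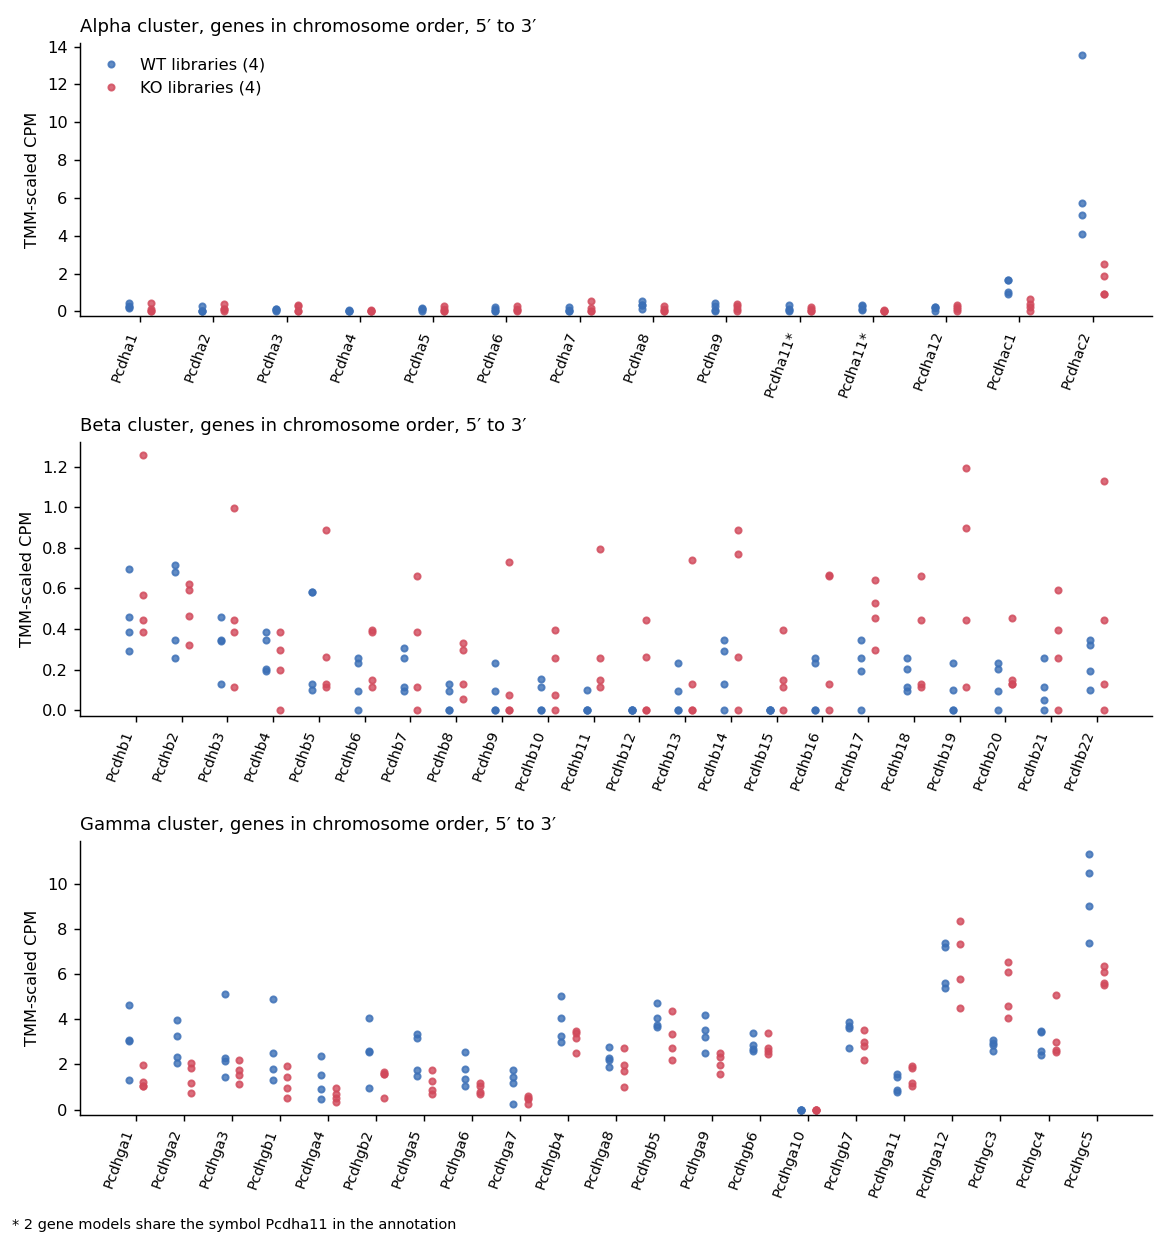
TMM-scaled CPM (linear axis) of each of the 57 members in chromosome order, with 1 panel per cluster and 1 point per library, 4 WT in blue and 4 KO in red. Each panel has its own vertical scale. Alpha alternates and beta genes sit near 0, while Pcdhac2, Pcdhga12 and Pcdhgc5 stand highest.

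A filter on low counts left 21 of the 57 members to be tested, 2 of the alpha cluster, 0 of the beta cluster and 19 of the gamma cluster. Of these 21, 7 were lower in the KO libraries, 1 was higher and 13 did not pass. Over all genes tested 53.5% passed, 28.2% lower and 25.3% higher. The median log2 difference was -0.70 over the 21 members and -0.05 over all genes. Among the 10849 tested genes in the members' range of abundance, 36.0% were lower and 11.7% higher, with a median of -0.41. The groups did not overlap for 6 of the 21 members, against 48.4% of all genes tested. These shares are given as a description, since a member that passes the filter through 1 high group has to differ.

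Neuron markers were lower in the KO libraries too. Among 11 tested neuron markers, 9 fell, 0 rose and 2 did not pass, with a median log2 difference of -1.24. Over all genes tested 28.2% were lower and 25.3% higher, which also stands beside the glia and germ cell calls below. No share was taken at the abundance of the markers. The most abundant were Nefm, a neurofilament gene (log2 difference -1.24, edgeR adjusted p = 0.000228), and Map2, a microtubule protein gene of dendrites (-0.92, edgeR adjusted p = 0.000460). Over the whole list of 12 the summed level was 142 to 209 CPM in WT and 66.4 to 93.9 CPM in KO, highest in WT 2, and no marker was at 0 in all libraries. Glia and Schwann cell markers summed to 17.54 to 26.1 CPM in WT, again highest in WT 2, and to 14.2 to 16.6 CPM in KO. Of 5 tested, 4 were lower and 1 was higher. Among the lower was Gfap, by a log2 difference of -2.25 (edgeR adjusted p = 0.000208), while the marker that was higher is not named here. What part Gfap had in the summed glia difference was not tested. Germ cell markers changed in both directions, 3 higher and 5 lower of 10 tested. In bulk libraries fewer cells of a type and less RNA per cell cannot be told apart, and the part of these cell types in the protocadherin differences was not tested.

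The 2 alpha C-type genes were lower in the KO libraries, by the widest differences of any tested member. Pcdhac2 (ENSMUSG00000102697.1, 37143503 to 37187657) had 112, 233, 105 and 63 counts in WT 1 to WT 4 and 28, 16, 34 and 14 counts in KO 1 to KO 4. As levels these were 5.74, 13.5, 5.11 and 4.08 CPM against 1.86, 0.908, 2.51 and 0.900 CPM. WT 2 stood far above the other WT libraries, and all 4 KO libraries lay below all 4 WT libraries. Mean levels were 7.11 ± 4.33 CPM in WT and 1.54 ± 0.785 CPM in KO (SD, n = 4), and the log2 difference was -2.22 (SE 0.426, edgeR adjusted p = 0.000776). Without WT 2 it was -1.70.

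Pcdhac1 (ENSMUSG00000103255.1, 37090013 to 37187657) was the rarer of the pair. It had 32, 16, 34 and 16 counts in WT 1 to WT 4 and 6, 4, 9 and 0 counts in KO 1 to KO 4. No KO library reached the lowest WT library, and KO 4 had none, where 3 counts (0.193 CPM) could have been missed. Between means of 1.31 ± 0.386 CPM in WT and 0.322 ± 0.280 CPM in KO (SD, n = 4), the log2 difference was -2.05 (SE 0.595, edgeR adjusted p = 0.0108). The sum of both genes fell from 8.43 ± 4.13 to 1.87 ± 1.05 CPM (SD, n = 4), without overlap. Both calls held in each of the 8 fits that left out 1 library. Pcdhac1 passed the low-count filter through its WT libraries, so its difference, p and calls are given as a description only.

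In the gamma cluster the C-type genes moved in different directions. Pcdhgc5 (ENSMUSG00000102543.5, 37819513 to 37841873) had the most counts of the 57 members. Its levels were 7.38, 9.003, 11.3 and 10.5 CPM in WT 1 to WT 4 and 6.10, 5.50, 5.61 and 6.36 CPM in KO 1 to KO 4. The KO libraries lay close together below the lowest WT library. The log2 difference was -0.70 (SE 0.183, edgeR adjusted p = 0.00619).

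Pcdhgc3 (ENSMUSG00000102918.1, 37806364 to 37841873) was the 1 member that rose. Its levels were 3.07, 2.61, 2.97 and 2.85 CPM in WT 1 to WT 4 and 4.04, 6.52, 4.58 and 6.10 CPM in KO 1 to KO 4. The WT libraries were nearly equal, and each KO library was above all of them. The log2 difference was 0.89 (SE 0.224, edgeR adjusted p = 0.00485), with 0.64 under upper-quartile scaling as the smallest value over the other fits. BC037039, the antisense gene, had 4 to 18 counts per WT library and 4 to 13 per KO library in its own bases, too few to be tested.

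Pcdhgc4 (ENSMUSG00000023036.14, 37815079 to 37841873), which neurons are known to need for survival, did not pass. Its levels were 3.43, 2.61, 2.43 and 3.49 CPM in WT 1 to WT 4 and 2.98, 2.55, 2.66 and 5.08 CPM in KO 1 to KO 4. KO 4 was the highest of the 8 libraries, and the others overlapped. The log2 difference was 0.15 (SE 0.278, edgeR adjusted p = 0.669) and -0.10 without KO 4.

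The ratio of Pcdhgc3 to Pcdhgc5 counts needs no scaling between libraries. It was 0.417, 0.290, 0.262 and 0.272 in WT 1 to WT 4 and 0.663, 1.19, 0.816 and 0.960 in KO 1 to KO 4. Pcdhgc5 had the more counts in every WT library, and in KO 2 Pcdhgc3 did. Of all gamma cluster counts, Pcdhgc3 made up 4.63% ± 0.805 in WT and 10.9% ± 1.76 in KO (SD, n = 4). Its share was the only one of the 21 gamma members whose groups did not overlap. Pcdhgc5 made up 15.5% ± 4.36 and 12.2% ± 1.18 (SD, n = 4).

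**Figure D2:**
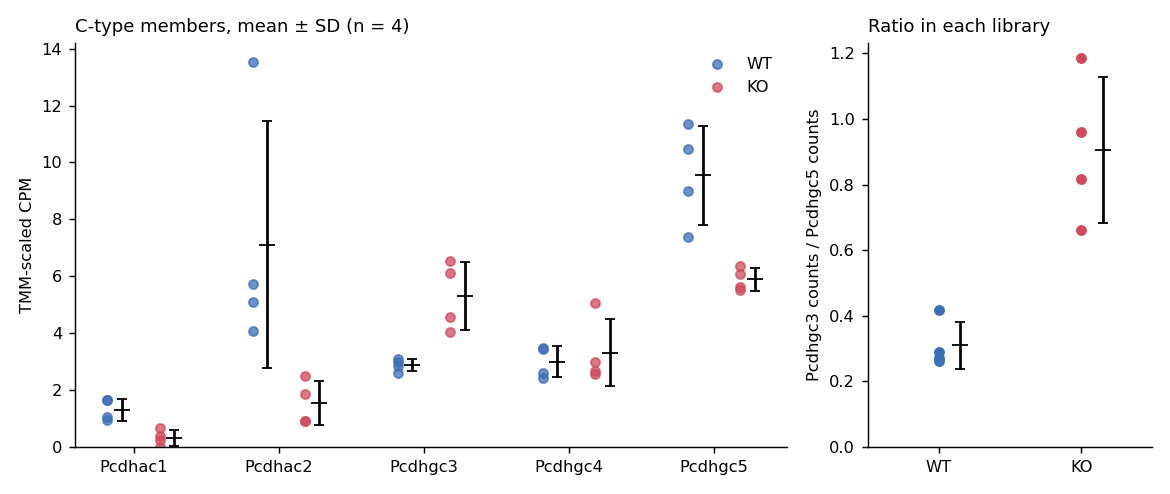
Left, TMM-scaled CPM of the 5 C-type members, 1 point per library, with mean and SD as bars (n = 4). Right, the ratio of Pcdhgc3 to Pcdhgc5 counts in each library, which lies between 0.262 and 0.417 in WT and between 0.663 and 1.19 in KO.

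Of the 19 gamma members tested, 5 were lower, 1 was higher and 13 did not pass. Over all genes tested 28.2% were lower and 25.3% higher, and in the members' range of abundance 36.0% and 11.7%. Lower calls were thus no more frequent among gamma members than in either background. The estimate was below 0 for 15 of the 19, with a median of -0.68, and the same sign held for 17 under upper-quartile and under ribosomal protein scaling. The count of lower calls rests on single libraries. It was 2 without KO 1, 1 without KO 2, 3 without KO 4, 2 without WT 1, 1 without WT 2 and 10 without WT 4. It was 2 with the replicate number as a block and 9 with upper-quartile scaling. Summed over the cluster, levels were 64.4, 75.2, 60.4 and 53.3 CPM in WT 1 to WT 4 and 44.1, 49.98, 46.9 and 53.3 CPM in KO 1 to KO 4. KO 4 lay just above WT 4, so the groups overlapped slightly. On raw library sizes they did not, with 55.9 to 83.0 CPM in WT and 41.4 to 50.7 CPM in KO.

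The gamma alternates that passed were A-type genes. Pcdhga1 (ENSMUSG00000103144.1, 37661793 to 37841873), the most 5′ member, had 3.02, 4.65, 3.07 and 1.29 CPM in WT 1 to WT 4 and 1.06, 1.02, 1.99 and 1.22 CPM in KO 1 to KO 4. WT 4 lay among the KO libraries. Its log2 difference was -1.19 (SE 0.382, edgeR adjusted p = 0.0179).

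Pcdhga2 (ENSMUSG00000103332.1, 37668953 to 37841870) had 3.28, 3.95, 2.34 and 2.07 CPM in WT 1 to WT 4 and 1.86, 0.737, 2.07 and 1.16 CPM in KO 1 to KO 4. The groups met without crossing, WT 4 just above KO 3. Its log2 difference was -1.01 (SE 0.355, edgeR adjusted p = 0.0279).

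Pcdhga5 (ENSMUSG00000103567.1, 37694380 to 37841873) had 3.18, 3.37, 1.75 and 1.49 CPM in WT 1 to WT 4 and 0.861, 0.681, 1.77 and 1.29 CPM in KO 1 to KO 4. KO 3 lay above WT 3 and WT 4. Here the log2 difference was -1.10 (SE 0.386, edgeR adjusted p = 0.0279).

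Pcdhga9 (ENSMUSG00000102440.1, 37736936 to 37841870) had 3.53, 3.19, 4.19 and 2.52 CPM in WT 1 to WT 4 and 1.59, 2.33, 2.51 and 1.99 CPM in KO 1 to KO 4. Again the groups did not cross, though WT 4 and KO 3 were nearly equal. With a log2 difference of -0.68 (SE 0.261, edgeR adjusted p = 0.0417) it was the weakest of these calls. Leaving out 1 library ended the call in 3 of 8 fits for Pcdhga1, in 4 of 8 for Pcdhga2 and for Pcdhga5, and in 6 of 8 for Pcdhga9. WT 2 and KO 2 were among those libraries for each of the 4 genes. The largest edgeR adjusted p in these fits was 0.0617 for Pcdhga1, 0.0848 for Pcdhga2, 0.0897 for Pcdhga5 and 0.152 for Pcdhga9.

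The most abundant alternate, Pcdhga12 (ENSMUSG00000102428.1, 37765580 to 37841873), had 7.22, 5.40, 5.60 and 7.38 CPM in WT 1 to WT 4 and 5.76, 8.34, 4.50 and 7.33 CPM in KO 1 to KO 4. The groups lay on top of each other, with a log2 difference of 0.02 (SE 0.222, edgeR adjusted p = 0.936), and the sign turned in 8 of the alternative fits. Pcdhgb5, the next most abundant, had 3.64, 4.71, 4.04 and 3.75 CPM in WT 1 to WT 4 and 2.19, 4.37, 2.73 and 3.34 CPM in KO 1 to KO 4. KO 2 was inside the WT range, and the log2 difference of -0.35 (SE 0.249, edgeR adjusted p = 0.257) did not pass. None of the 6 gamma B genes passed, with log2 differences from -1.13 for Pcdhgb1 to -0.05 for Pcdhgb6. Pcdhgb1, whose variable exon shares stretches with another member, was near the threshold (edgeR adjusted p = 0.0545) and passed with DESeq2. Pcdhgb8, annotated as a polymorphic pseudogene and so no member, had 48 to 66 counts per library and a log2 difference of 0.39 (edgeR adjusted p = 0.155).

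Along the gamma cluster the estimates came closer to 0 from 5′ to 3′. Over the 16 tested alternates, position in the cluster and log2 difference had a Spearman rho of 0.88 and a Pearson r of 0.88. These are across genes of 1 locus, measured in the same libraries, and so are not independent points. Mean log2 CPM had a rho of 0.51 and the GC content of the variable exon a rho of 0.10 with the same differences. The 9 alternates from Pcdhga1 to Pcdhga7 had a median log2 difference of -1.04 with 3 lower of 8 tested, and the 9 from Pcdhgb4 to Pcdhga12 had -0.27 with 1 lower of 8 tested. Beside these counts stand 28.2% lower over all genes tested and 36.0% lower in the members' range of abundance.

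The order of the differences was not equally clear in every library. Set against the WT mean, rho over the 16 alternates was 0.65, 0.79, 0.31 and 0.81 for KO 1 to KO 4. These values all use the same WT mean and so are not independent. WT 2 was the highest of all 8 libraries in each of the 9 alternates at the 5′ end, and in 3 of the 9 at the 3′ end. Without WT 2, rho was 0.73 and the median of the 5′ alternates -0.64. Summed over the 5′ alternates, levels were 21.1, 32.7, 17.7 and 10.3 CPM in WT 1 to WT 4 and 9.74, 7.55, 12.5 and 10.7 CPM in KO 1 to KO 4. WT 4 thus lay inside the KO range. Over the 3′ alternates the sums were 29.4, 28.2, 25.9 and 26.1 CPM in WT 1 to WT 4 and 21.3, 27.9, 21.5 and 25.1 CPM in KO 1 to KO 4, which overlapped too. The ratio of 5′ to 3′ alternate counts, which needs no scaling, was 0.715, 1.16, 0.681 and 0.394 in WT 1 to WT 4. In KO 1 to KO 4 it was 0.458, 0.271, 0.584 and 0.428. The groups overlapped, with WT 4 below KO 1, KO 3 and KO 4.

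**Figure D3:**
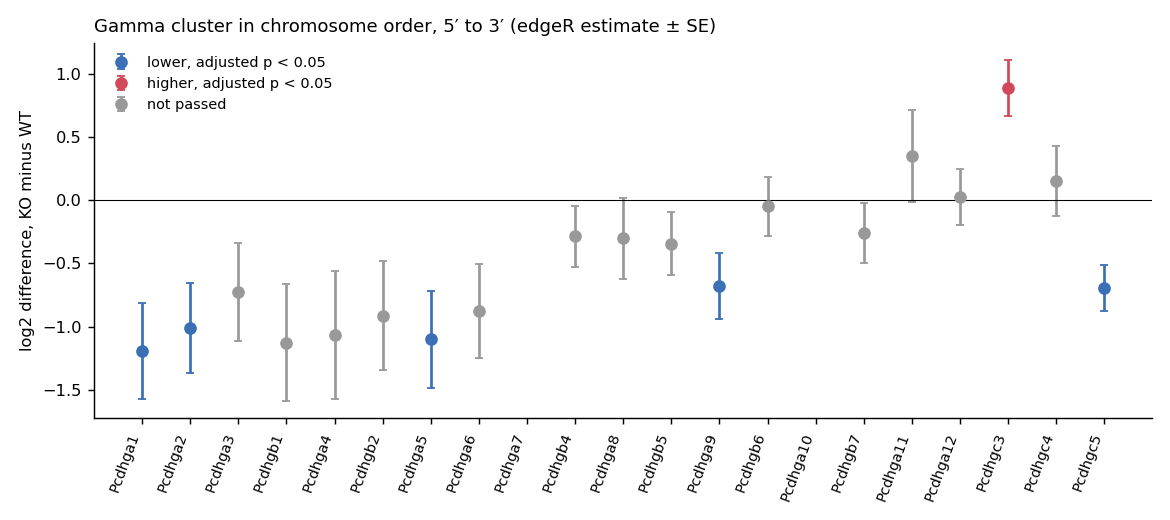
The log2 difference, KO minus WT, of each tested gamma member with its standard error from edgeR, in chromosome order from 5′ to 3′; Pcdhga7 and Pcdhga10 were not tested. Estimates are lowest at the 5′ end and approach 0 among the 3′ alternates, with Pcdhgc3 above 0 and Pcdhgc5 below.

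The alpha alternates and the beta genes were close to the limit of detection. Of the 96 values of the 12 alpha alternates, 37 were 0 and 67 were 3 counts or fewer, and the highest was 9. Pcdha8, the highest by mean CPM, had 2, 9, 7 and 5 counts in WT 1 to WT 4 and 2, 0, 4 and 0 counts in KO 1 to KO 4. Pcdha1 had 4, 3, 9 and 4 counts in WT 1 to WT 4 and 7, 0, 2 and 0 counts in KO 1 to KO 4. KO 2 had no count in any of the 12 alternates, while KO 1 had 43 over all of them, the most of the 8 libraries. The sums were 1.71 ± 0.479 CPM in WT and 1.49 ± 1.26 CPM in KO (SD, n = 4), and a difference was not detectable at this depth. In the libraries labelled WT the 2 C-type genes thus held 611 of the 737 alpha counts, and in those labelled KO 111 of 198.

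Beta genes also had few counts, with 87 of their 176 values at 3 counts or fewer and a highest value of 19. Pcdhb1 had 9, 12, 6 and 6 counts in WT 1 to WT 4 and 19, 10, 6 and 6 counts in KO 1 to KO 4. Pcdhb2 had 14, 6, 14 and 4 counts in WT 1 to WT 4 and 7, 11, 8 and 5 counts in KO 1 to KO 4. Both genes overlapped between the groups. Summed over the 22 genes, levels were 3.43, 5.23, 3.46 and 3.17 CPM in WT 1 to WT 4 and 12.1, 3.06, 8.64 and 6.23 CPM in KO 1 to KO 4. KO 2 was the lowest library of all and the other KO libraries were the 3 highest, so the groups overlapped. The group mean was higher in KO for 19 of the 22 genes. In a fit without the low-count filter 4 beta genes passed as higher, Pcdhb11, Pcdhb12, Pcdhb15 and Pcdhb19. These 4 had 2, 0, 0 and 6 counts in all in the WT libraries and 20, 10, 10 and 40 in the KO libraries. Pcdhb11 had 12, 2, 2 and 4 counts in KO 1 to KO 4, and Pcdhb19 had 18, 2, 6 and 14. Pcdhb12 had 4, 0, 6 and 0 and Pcdhb15 had 6, 2, 2 and 0, so these calls rest on few reads in 2 and 3 libraries. The share of all genes called in that fit was not taken.

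**Figure D4:**
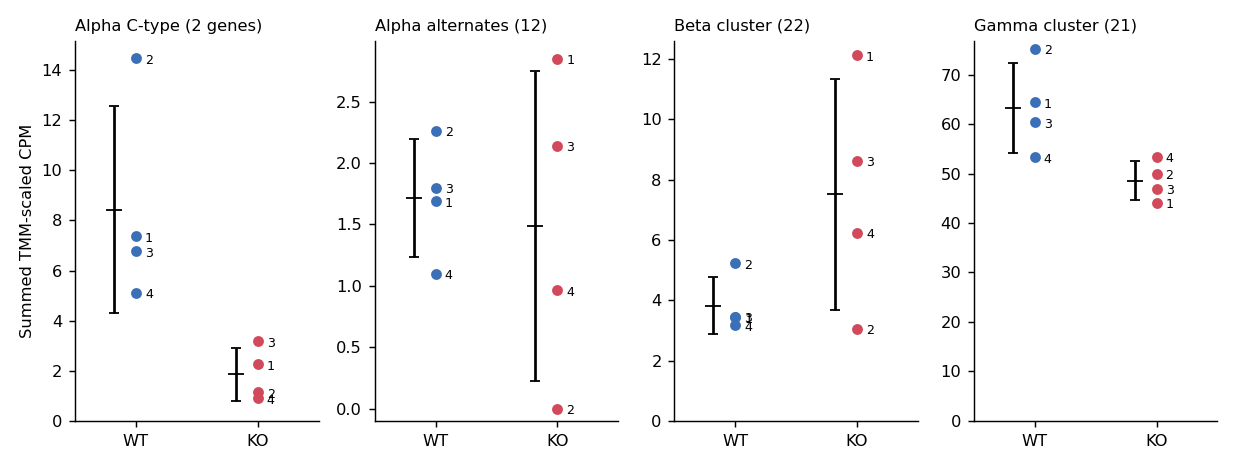
Summed TMM-scaled CPM in each library (replicate number beside the point) for the alpha C-type genes, the alpha alternates, the beta cluster and the gamma cluster, with mean and SD as bars (n = 4). Groups are apart for the alpha C-type genes and overlap in the other 3 panels.

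The variable exons differ in composition between the clusters. Their median GC content was 53.0% in the alpha, 46.0% in the beta and 51.6% in the gamma cluster, and the median ratio of observed to expected CpG was 0.651, 0.386 and 0.533. Close copies can make reads ambiguous. The median share of windows of 50 bases found unchanged in another member was 14.2% in the alpha cluster, 4.26% in the beta cluster and 0.601% in the gamma cluster, and it was 0 in the 5 C-type members. Single gamma genes had shares as high as the alpha alternates, with 16.8% in Pcdhgb1 and 15.8% in Pcdhgb2, and the counts of such genes are less certain. The RefSeq promoter table used here held none of the members, so promoter features are not described.

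For the other cell types, the summed marker levels overlapped between the groups, while single markers passed in both directions. Calls were 4 higher and 1 lower of 8 tested for Sertoli cells, 2 higher and 1 lower of 9 for interstitial and peritubular cells, 1 higher and 3 lower of 4 for endothelium, 0 higher and 2 lower of 3 for macrophages and 1 higher and 1 lower of 4 for erythroid cells. Over all genes tested 25.3% were higher and 28.2% lower. The Sertoli genes Amh (log2 difference 1.197, edgeR adjusted p = 0.00396) and Wt1 (1.13, edgeR adjusted p = 0.00201), chosen after their values were seen, were higher in each KO library than in any WT library. Summed over each list, Sertoli cell markers ran from 45.9 to 56.4 CPM in WT and from 38.2 to 183 CPM in KO, interstitial and peritubular markers from 103 to 135 and from 106 to 141 CPM, and endothelial markers from 57.1 to 68.8 and from 56.0 to 69.8 CPM. Macrophage markers ran from 7.14 to 11.5 CPM in WT and from 5.73 to 10.5 CPM in KO, and erythroid markers from 17.9 to 22.9 and from 12.5 to 19.5 CPM. The highest Sertoli sum was that of KO 4. KO 1, KO 2 and KO 3, at 39.0, 38.2 and 42.4 CPM, lay below every WT library, unlike Amh and Wt1. Of the 8 members called, 6 kept the call in the fit without KO 4, and Pcdhga2 and Pcdhga9 lost it. The part of other cell types in these calls was not tested.

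Non-clustered protocadherins are single genes outside the clusters that share the extracellular repeats but not the exon choice. Of 10 tested, 3 were lower, 1 was higher and 6 did not pass, where 28.2% of all genes tested were lower and 25.3% higher. Pcdh15, a tip-link protein of sensory hair cells, had 13.9, 18.6, 11.3 and 8.74 CPM in WT 1 to WT 4 and 3.11, 1.36, 4.13 and 3.08 CPM in KO 1 to KO 4. Its groups were far apart, with a log2 difference of -2.18 (edgeR adjusted p = 8.34e-05). Pcdh10 had 2.51, 8.25, 2.00 and 1.29 CPM in WT 1 to WT 4 and 1.26, 0.284, 1.11 and 0.964 CPM in KO 1 to KO 4. Its log2 difference was -1.97 (edgeR adjusted p = 0.0111), but WT 2 stood far above, and without it the call was lost (-1.11, adjusted p = 0.0537). Pcdh12, which is expressed in endothelium, was lower by a log2 difference of -1.12 (edgeR adjusted p = 0.0119), a call lost without WT 1 (0.0585). Pcdh17 was higher by 1.43 (edgeR adjusted p = 0.0121), with 1.29 to 4.07 CPM in WT and 2.72 to 10.8 CPM in KO.

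Genes that shape the loops at protocadherin promoters were mostly higher in the KO libraries. Among 11 CTCF and cohesin genes, 7 rises, 0 falls and 4 that did not pass gave a median log2 difference of 0.48. Over all genes tested 25.3% were higher and 28.2% lower. Such shares differ with abundance, and no share was taken at the abundance of these genes or of the lists below. Upper-quartile scaling gave 5 rises and 1 fall. Ctcf, which binds the promoters and their enhancers, was at 48.6 ± 4.19 CPM in WT and 85.8 ± 9.09 CPM in KO (SD, n = 4), and rose by 0.82 on the log2 scale (edgeR adjusted p = 6.26e-05). The cohesin loader genes Mau2 (0.86) and Nipbl (0.66) and the cohesin regulator gene Pds5a (0.63) also rose.

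Genes for silencing of the promoters changed in both directions. Among 14 genes, 7 rose, 2 fell and 5 did not pass, with a median log2 difference of 0.34, or 0.10 with upper-quartile scaling. The shares over all genes tested were 25.3% higher and 28.2% lower. Uhrf1, which keeps DNA methylation through replication, was at 26.0 ± 4.77 CPM in WT and 108 ± 13.2 CPM in KO (SD, n = 4), and rose by 2.05 on the log2 scale (edgeR adjusted p = 4.4e-07). The H3K9 methyltransferase gene Setdb1 (1.05), the co-repressor gene Trim28 (1.01) and Rest (1.02), a repressor of neuronal genes, rose as well. The genes that fell were Dnmt3a (-0.59), a de novo DNA methyltransferase, and Ehmt2 (-0.73), an H3K9 methyltransferase. Smchd1, whose product represses the clusters, rose by 0.46 (edgeR adjusted p = 0.00872), and Dnmt3b, which methylates the alternate promoters, did not pass (0.10, edgeR adjusted p = 0.539). Smchd1 and Dnmt3b are outside the naming rule and were chosen after their values were seen.

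Genes for cleavage and signalling of protocadherins were measured with the same tests. Among 20 genes, 13 rose, 4 fell and 3 did not pass, with a median log2 difference of 0.52. Beside them stand 25.3% higher and 28.2% lower over all genes tested. Under upper-quartile as under ribosomal protein scaling, 9 rose and 4 fell. Members of the WAVE actin complex were among the rises, Cyfip1 (0.96), Wasf2 (0.81) and Brk1 (0.81), as was the Wnt pathway scaffold gene Axin1 (0.62). The 4 that fell were Ptk2b (-1.17), a kinase gene whose product protocadherins hold back, the protein kinase C gene Prkca (-1.05), the presenilin gene Psen2 (-0.73) and Cyfip2 (-0.35).

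Genes beside the clusters were also described. Of 34 other protein-coding genes overlapping the span from 500 kb before to 500 kb after the clusters, 31 were tested, 16 of them higher, 5 lower and 10 not passing, with a median log2 difference of 0.43. With upper-quartile scaling 13 were higher and 7 lower. Under the main scaling 25.3% of all genes tested were higher and 28.2% lower. Those with the lowest p were Sra1 (1.47), Slc35a4 (0.89), Wdr55 (0.99) and Arap3 (-1.08). The others that fell were Slc4a9 (-1.45), Pcdh12 (-1.12), Hbegf (-0.80) and Pfdn1 (-0.50). Pcdh12 was also counted among the non-clustered protocadherins. The 3 that were not tested were gene models that read through the clusters, with no bases of their own and 0 counts.

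**Figure D5:**
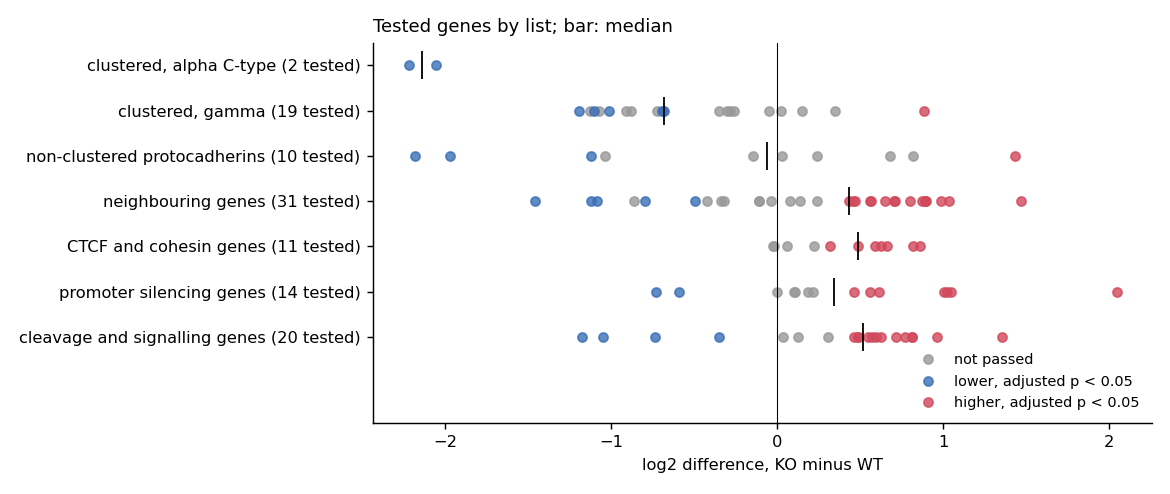
The log2 difference, KO minus WT, of each tested gene, by list, coloured by its edgeR call, with the median of the list as a bar. The alpha C-type genes lie near -2, the gamma members spread from -1.19 to 0.89, and the medians of the CTCF and cohesin, silencing, cleavage and signalling, and neighbouring genes lie above 0.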

How the data were processed

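For each of 8 libraries the authors deposited raw counts per gene, whole numbers with no normalization, and all of these columns were used. Libraries of ribosomal RNA-depleted total RNA were made from 5 ng with a kit that carries unique molecular identifiers, per the labels' protocols. The tools in the submitters' processing notes, listed without role or order, are DESeq2, edgeR, featureCounts 1.5.0, STAR and Trim Galore, and the build is mm10. The sources used here do not say whether identifiers were collapsed, which strand setting was used or whether both reads of a pair were counted. Among counts from 1 to 10, 78.5% of the members' values and 56.1% of all genes' values were even. Total RNA holds unspliced transcripts, so a read on a variable exon cannot be assigned to the promoter that started it.

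Of 55401 genes, 55141 matched GENCODE M21, the 57 members with the same version. A pair of models share the symbol Pcdha11. Counts were fitted with edgeR 4.0.16 in R 4.3.3 (filterByExpr, TMM, quasi-likelihood, genotype only), and the script was tested on simulated data. The members and lists were chosen with earlier results of these data known. Named were the C-type members, members that passed, the 3 lowest p and 2 highest mean CPM among the alternates and beta genes of each cluster, and in each list the 4 lowest p, calls in the rarer direction where 5 or fewer, or for markers the 2 most abundant. Not every marker gene under this rule is named. Genes not reported singly stay in the counts. Alternatives were DESeq2 1.42.0, RLE, upper-quartile and ribosomal protein scaling (79 genes), no low-count filter, a stricter one (CPM of 1 in 4 libraries), a replicate block, robust dispersion, an absolute log2 difference of 1, leaving out each library, raw library sizes and all exonic bases. A count of 0 allows up to 3 counts, or 0.146 to 0.221 CPM, which covers counting error only. This limit takes counts as independent, which they are not if both reads of a pair were counted.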

Additional observations from a re-analysis of the deposited data

Results flagged for a closer look

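Of 126 groups of 4 libraries examined, 11 had a highest or lowest library far from the other 3 of its group, by Dixon's criterion for the gap over the range. Chance flags about 1 in 20 groups. For the members, Pcdhgc4 was at 5.08 CPM in KO 4, with the next KO library at 2.98 CPM. The summed beta cluster was at 5.23 CPM in WT 2, with the next WT library at 3.46 CPM.

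Leydig and Sertoli cell genes set KO 4 apart. It had 862 CPM of Cyp17a1, with the next KO library at 4.70 CPM, 369 CPM of Cyp11a1 (next 4.37 CPM), 52.4 CPM of Nr5a1 (next 3.64 CPM) and 52.5 CPM of Clu (next 21.8 CPM). In KO 3 the glial gene Gfap was at 3.17 CPM, with the next KO library at 1.33 CPM.

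Pathway genes gave the other 4. Ehmt2 was at 1375 CPM in WT 2, with the next at 1153 CPM. Wasf2 was lowest in WT 2, at 61.7 CPM (next 72.3 CPM), and highest among KO libraries in KO 2, at 142 CPM (next 119 CPM). Brk1 was at 12.3 CPM in WT 1, with the next WT library at 14.1 CPM.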

How the results depend on the processing

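Pcdhac1, Pcdhac2, Pcdhgc3 and Pcdhgc5 kept direction and call under each other scaling, filter, test and dispersion, in the replicate block and in each fit without 1 library. Of these, Pcdhac1 had passed the low-count filter through its WT libraries. Where the call also needed an absolute log2 difference of 1, Pcdhgc3 and Pcdhgc5 were no longer called. Beta members called higher went from 0 to 4 without the low-count filter. Gamma members called lower, 5 in the report, were 9 with upper-quartile scaling, 3 with that threshold, and 1 to 10 when 1 library was left out. The gamma member called higher was lost (0) with that threshold. The replicate block gave 2 lower gamma members, without Pcdhga2, Pcdhga5 and Pcdhga9. No common pairing by replicate number was seen: deviations from the group means correlated at 0.32, -0.29, -0.18 and -0.06 for numbers 1 to 4. The pair at 0.32, KO 1 and WT 1, is also the one whose library names share a number, and the other library names share none across the groups. This value lies inside the range of pairs of unlike number, and the check cannot tell whether KO 1 and WT 1 are related. Pairs of unlike number ran from -0.30 (KO 1 with WT 4) to 0.35 (KO 2 with WT 4). Signs turned for Pcdhgc4 with upper-quartile scaling (-0.089) and scaling on ribosomal protein genes (-0.0004), and values ran from -0.10 to 0.30 when 1 library was left out. They turned for Pcdhga12 with upper-quartile scaling (-0.22), scaling on ribosomal protein genes (-0.17), the stricter filter (-0.017) and the replicate block (-0.0026), and values ran from -0.086 to 0.19 when 1 library was left out. Without 1 library Nr5a1 ran from -0.27 to 2.55 and Cyp11a1 from -0.77 to 4.95, both lowest without KO 4. Upper-quartile scaling moved the median of all genes from -0.05 to -0.29 and ribosomal protein scaling to -0.23. Per kb of all exonic bases, the WT levels of Pcdhgc3, Pcdhgc5 and Pcdhga12 were 0.523, 1.25 and 0.960 CPM, since shared bases gave no counts. On raw library sizes the summed levels of the alpha, beta and gamma clusters kept their direction (log2 ratios of KO to WT of -1.76, 0.81 and -0.56, against -1.60, 0.98 and -0.38). Depth limited the alpha alternates and beta genes, none of which could be tested in the filtered fit.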
